A study of Mus musculus with 6 samples.

Results

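The genes described here are 10 regulators, matrix proteins and an enzyme of cartilage and bone: Sox9, Sox5, Sox6, Acan, Comp, Chad, Hapln1, Runx2, Sp7 and Alpl. They were chosen by symbol, through the RefSeq accession that each array probe carries, and all 10 were found, on 12 of 55681 probes. Sox5 and Runx2 had 2 probes each. Their RNA was compared between cultures labelled heart fibroblasts and cultures labelled tail fibroblasts, both from male C57/Bl6-J mice with no treatment or genetic change named in the labels. The labels give an age of 8 weeks, and the protocol 8 to 10 weeks. Chopped hearts and skinned, chopped whole tails were digested with trypsin/EDTA or collagenase type II. The cells were then plated for 5 days in medium with serum. The labels do not say which enzyme served which culture, and no removal of vertebrae, tendon or valves is described. There were 3 cultures per tissue, each pooled from 2 animals, and each was measured on 1 array with 1 dye (Cy3). The labels do not say whether 1 animal gave both a heart and a tail culture.

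Cartilage is built by chondrocytes under the transcription factor Sox9, with Sox5 and Sox6 as its partners. These factors drive genes of the cartilage matrix, among them type II collagen, the large proteoglycan aggrecan (Acan) and the link protein (Hapln1) that fastens aggrecan to hyaluronan. Bone is built by osteoblasts under Runx2 and, downstream of it, Sp7 (osterix), and the phosphatase encoded by Alpl frees phosphate for mineral. Many of these genes are also active outside the skeleton: Sox9 in the developing heart valves, and Comp, a pentameric matrix glycoprotein, in tendon.

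Of the 10 genes, Sox9 and Comp had large differences, and in opposite directions. Heart 1 and heart 3 had more Sox9 and less Comp than tail 2 and tail 3, and the array labelled tail 1 had the values of heart at both genes. The array labelled heart 2 had low Sox9 and Comp between the others. With all 6 arrays under their labels, limma called 0 of the 7 genes that could be tested, at an adjusted p under 0.05, and 0 of all 20197 features (0% called). Comp alone of the 7 had an unadjusted p under 0.05 (0.0267), as did 464 features (2.3%) in all. Without heart 2 limma again called 0 of the 7 and 0 of 20281 features (0%), and 0 of the 7 had an unadjusted p under 0.05, against 583 features (2.87%). On the 4 arrays without heart 2 and tail 1, 3 of the 7 passed, Sox9 higher and Comp and Runx2 lower in heart. The background there was 14.3% of 20567 features, 7.74% higher and 6.53% lower in heart. Runx2 could be tested through tail alone, where it was brighter. With signal required on all 4 arrays Runx2 was not tested and Sox5 passed, so 3 of 6 genes passed, against 2155 of 18556 features. Leaving out tail 1 rests on the outcome itself, so p-values from 4 arrays are too small by an unknown amount.

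The 2 arrays that stand apart did so across the whole array. The median processed signal was 949 on heart 2 and 24.3 to 37.8 on the others, with 2748 and 0 to 7 spots flagged as non-uniform. Heart 2 had 99.3% of its spots well above background, against 47.3% to 55.2% on the other 5 arrays, and its correlation with them across probes was 0.742 to 0.764, where any other pair reached at least 0.957. For the array labelled tail 1 that correlation was closest with heart 1 (0.988), then heart 3 (0.979), tail 2 (0.969) and tail 3 (0.957). At the 433 probes in the authors' deposited table, the deviations of tail 1 from the 6-array mean ran with the log2 fold changes of heart over tail (r = 0.98), as those of heart 1 and 3 did (0.97 and 0.981). Tail 2 and 3 ran against them (-0.985 and -0.987), and so did heart 2 over the 413 probes measured on it (-0.573). All 8 general fibroblast markers, among them Col1a1, Pdgfra and Vim, were well above background on all 6 arrays. Of 5 cardiomyocyte markers, Actn2 and Ryr2 were well above background on heart 2 alone and Myh6 on heart 1 and heart 2. Myh7 and Tnni3 were well above background on every array but heart 3, tail arrays included. Values below are log2 of the processed signal minus the 75th percentile of the same array, and levels of different probes cannot be set against each other.

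**Figure D1:**
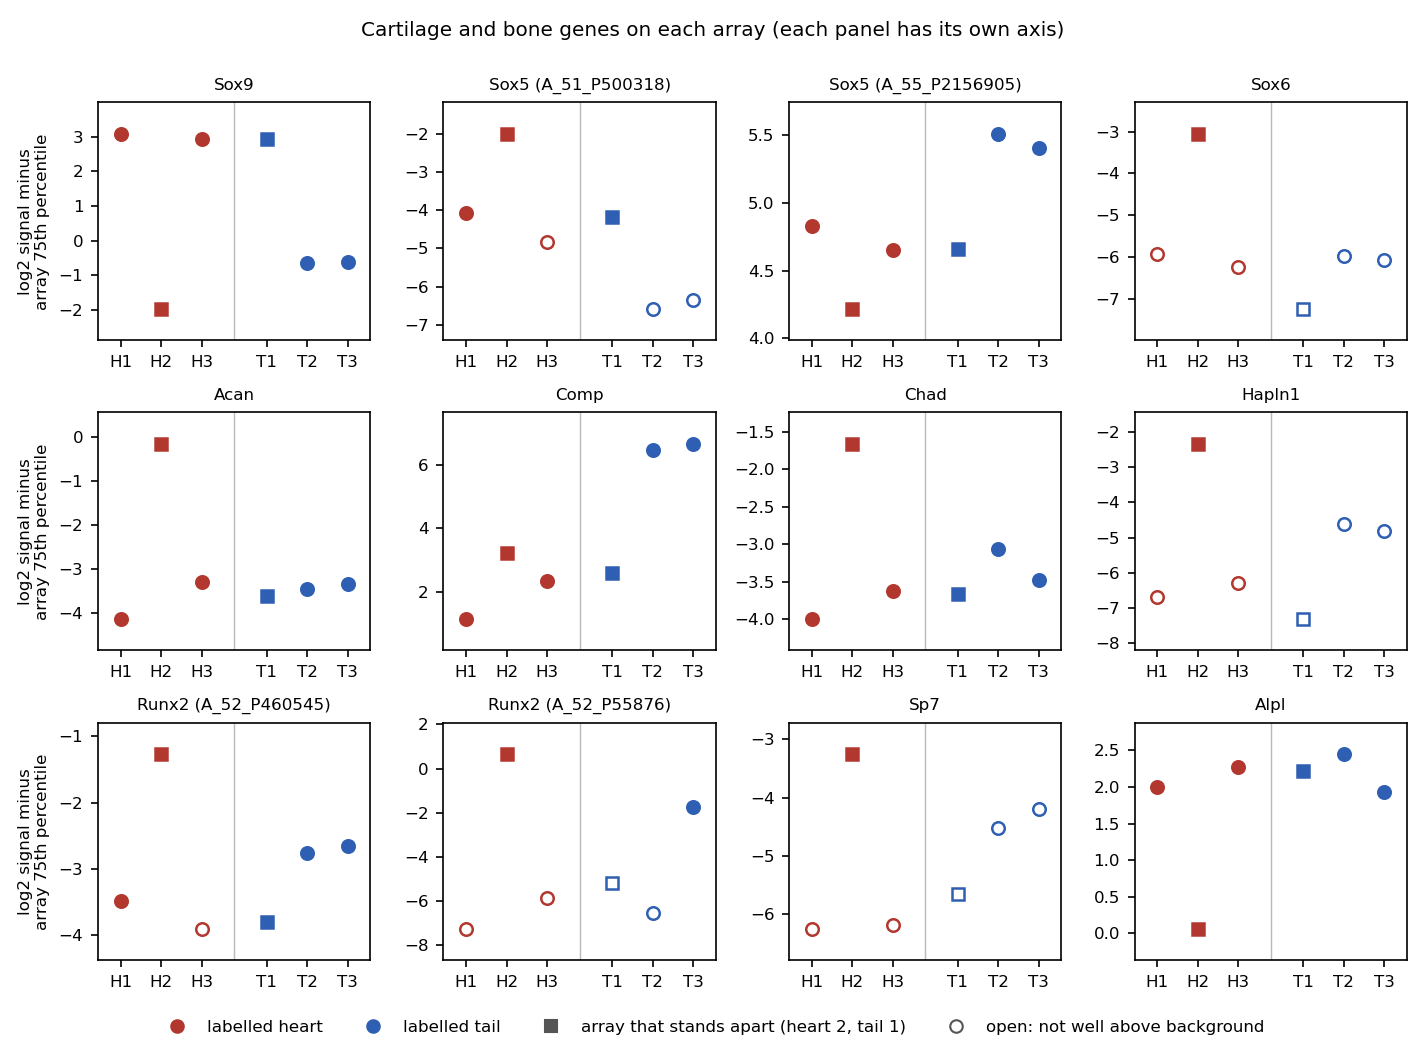
Each panel shows 1 probe of the 10 genes, with the level on each array (log2 signal minus the array's 75th percentile) for heart 1 to 3 (red, H1 to H3) and tail 1 to 3 (blue, T1 to T3). Squares mark heart 2 and tail 1, and open symbols mark values not well above background. Sox9 lies near 3 on H1, H3 and T1 and below 0 on H2, T2 and T3, and Comp lies above 6 on T2 and T3 and on no other array.

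Sox9, the regulator without which cartilage does not form, had levels of 3.08, -1.97 and 2.93 on heart arrays 1, 2 and 3, against 2.93, -0.64 and -0.61 on tail arrays 1, 2 and 3. Heart 1, heart 3 and the array labelled tail 1 were high, heart 2, tail 2 and tail 3 were low, and the groups as labelled overlapped. Before scaling, the processed Sox9 signal was 632 on heart 2, above the 293 on tail 2 and 355 on tail 3. The array carries the Sox9 probe on 10 spots, and after outlier spots were left out 9 or 10 remained per array. Their SD within an array was 0.06 on heart 1, heart 3 and tail 1, 0.08 on tail 2, 0.11 on tail 3 and 0.19 on heart 2, which measures the technical spread between spots and not that between cultures. By label the mean was 1.35 in heart and 0.56 in tail, a difference of 0.79 (SE 1.496, limma adjusted p = 0.80). The sign of that difference turned under quantile normalization (-0.42) and median scaling (-0.17). Without heart 2 it was 2.45 (SE 1.19, adjusted p = 0.695). On 4 arrays the mean was 3.01 in heart and -0.62 in tail, and Sox9 was 12.4-fold higher in heart (log2 difference 3.63, SE 0.15, limma adjusted p = 0.00106, n = 2 per group). Numbers in the names of the deposited scans were taken as slide rows, which puts the 4 arrays in 2 rows. Within these rows the difference was 3.72 (heart 1 minus tail 2) and 3.54 (heart 3 minus tail 3). With all 4 arrays of the first row it was -0.59.

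Sox5, a partner of Sox9 that has no activation domain of its own, was measured by 2 probes, of which 1 could be tested. Its bright probe (A_55_P2156905) had 4.83, 4.22 and 4.65 on heart arrays 1, 2 and 3, against 4.66, 5.51 and 5.41 on tail arrays 1, 2 and 3. All 3 heart arrays and the array labelled tail 1 lay below tail 2 and tail 3. The difference was -0.63 by label (SE 0.43, adjusted p = 0.726, sign turned under quantile normalization at 0.02). On 4 arrays it was -0.72 (SE 0.16) and just missed the threshold (limma adjusted p = 0.0516). The dim probe (A_51_P500318) had -4.08, -1.998 and -4.84 on heart arrays 1, 2 and 3, against -4.17, -6.59 and -6.34 on tail arrays 1, 2 and 3. It was well above background on heart 1, heart 2 and tail 1 and on no other array, so it was not tested. Its untested difference was 2.06 by label and 2.00 on 4 arrays, opposite in sign to that of the bright probe. Both probes carry the same RefSeq accession, and the transcript forms that each one reads are not annotated here.

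Sox6, the other partner of Sox9, was well above background on heart 2 alone. Its levels were -5.92, -3.05 and -6.23 on heart arrays 1, 2 and 3, against -7.24, -5.97 and -6.08 on tail arrays 1, 2 and 3, and it was not tested. Hapln1 had -6.68, -2.34 and -6.28 on the heart arrays, against -7.31, -4.62 and -4.83 on the tail arrays. It too was well above background on heart 2 alone, so no difference can be given for the link protein.

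Comp, the cartilage oligomeric matrix protein that binds collagen fibrils, had 1.13, 3.24 and 2.34 on heart arrays 1, 2 and 3, against 2.57, 6.47 and 6.67 on tail arrays 1, 2 and 3. Tail 2 and tail 3 stood apart at the top, and the array labelled tail 1 lay among the heart arrays. By label the mean was 2.23 in heart and 5.24 in tail (log2 difference -3.002, SE 1.104, adjusted p = 0.726). Without heart 2 the difference was -3.50 (SE 1.39, adjusted p = 0.695). On 4 arrays Comp was 28.5-fold lower in heart (log2 difference -4.83, SE 0.43, limma adjusted p = 0.00465), with means of 1.73 in heart and 6.57 in tail. Within the slide rows the difference was -5.33 (heart 1 minus tail 2) and -4.33 (heart 3 minus tail 3), and with all 4 arrays of the first row -2.34.

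Tendon markers moved with Comp. By label 0 of 4 tested tendon markers passed. The 5 markers Tnmd, Scx, Mkx, Thbs4 and Cilp were all lower in heart on 4 arrays, where 6.53% of all features were lower. Tnmd, Mkx and Thbs4 were not well above background on heart 3 and could be tested through tail alone, where they were brighter. With signal required on all 4 arrays, 2 were tested and 2 were lower, against 1000 of 18556 features. Tnmd was at least 175-fold and Mkx at least 15.9-fold lower, and both were not well above background on heart 1 or heart 3. Scx, the tendon transcription factor, was 4.91-fold lower. The summed level of the list, in multiples of the 75th percentile, was 0.625, 67.2 and 0.682 on heart arrays 1, 2 and 3, against 0.699, 424 and 395 on tail arrays 1, 2 and 3. The part of tendon cells in the Comp difference was not tested. In bulk RNA such as this, fewer cells of a type and less RNA per cell cannot be told apart.

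Acan, the proteoglycan that gives cartilage its resistance to compression, had -4.13, -0.16 and -3.29 on heart arrays 1, 2 and 3, against -3.62, -3.45 and -3.34 on tail arrays 1, 2 and 3. Heart 2 stood far above the rest. Among the other 5 arrays heart 1 was the lowest and heart 3 the highest, so that heart and tail overlapped. The difference on 4 arrays was -0.31 (95% confidence interval -1.14 to 0.52, limma adjusted p = 0.555). By label it was 0.94 (SE 0.93, adjusted p = 0.726), turned to -0.02 under median scaling and to -0.24 without heart 2. Chad, encoding the small leucine-rich protein chondroadherin that binds chondrocytes, had -4.00, -1.66 and -3.63 on the heart arrays, against -3.66, -3.06 and -3.48 on the tail arrays. Heart 1 and 3 lay below tail 2 and 3 by less than the test could call, at -0.54 (95% confidence interval -1.15 to 0.08, adjusted p = 0.221). By label the difference was 0.31 (SE 0.64, adjusted p = 0.815), and its sign turned under quantile normalization (-0.74), median scaling (-0.65) and without heart 2 (-0.41). Neither interval reaches the size of the Sox9 difference on the same 4 arrays. As leaving out tail 1 rests on the outcome, both intervals are too narrow by an unknown amount. Both probes were also dim. The lowest level well above background was -5.28 on heart 1 and -4.17 on heart 3, so a fall that large in heart could not have been measured.

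Runx2, the master regulator of osteoblasts, was dim. Its main probe (A_52_P460545) had -3.48, -1.27 and -3.91 on heart arrays 1, 2 and 3, against -3.80, -2.76 and -2.65 on tail arrays 1, 2 and 3. It was well above background on all arrays but heart 3, and the array labelled tail 1 again lay with heart 1 and 3. By label the difference was 0.19 (SE 0.73, adjusted p = 0.903), with the sign turned under quantile normalization (-0.63), median scaling (-0.78) and without heart 2 (-0.62). On 4 arrays Runx2 was 1.99-fold lower in heart (log2 difference -0.99, SE 0.20, limma adjusted p = 0.0437), with 1 of the 2 heart arrays well above background. Runx2 was therefore tested through tail alone, and with signal required on all 4 arrays it was not tested. That call was lost under quantile normalization (0.0904), median scaling (0.0716), normexp (0.0907), no filter (0.243) and an intensity trend (0.0744). It was also lost without heart 3 (0.0599), tail 2 (0.219) or tail 3 (0.28). Within the slide rows the difference was -0.72 and -1.26. The second probe (A_52_P55876) was well above background on heart 2 (0.66) and tail 3 (-1.74) alone, with -7.27 and -5.87 on heart 1 and 3 and -5.19 and -6.53 on tail 1 and 2.

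The start of Runx2 is shown because Runx2 is the one regulator of the 10 that passed on 4 arrays and has a window in the promoter table, and Runx proteins are known to act on this promoter. The window of 300 bases spans the transcription start on RefSeq's GRCm38.p6, chr17:44814578-44814877, minus strand, written 5′ to 3′ along the gene. Capitals mark the core letters bound by Runx factors, TGTGGT, which lie here as their reverse complement ACCACA.
Runx2 promoter: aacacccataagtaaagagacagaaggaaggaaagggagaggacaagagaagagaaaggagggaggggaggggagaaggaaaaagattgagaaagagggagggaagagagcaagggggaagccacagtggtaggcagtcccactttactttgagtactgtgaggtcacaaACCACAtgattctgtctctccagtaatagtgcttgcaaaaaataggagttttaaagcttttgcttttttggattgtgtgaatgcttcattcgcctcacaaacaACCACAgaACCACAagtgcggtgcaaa
The window holds 3 matches, all on the opposite strand. TGTGGT on either strand occurs in 16.8% of the 32851 promoter windows of the same length. Of the 10 genes 7 matched the table, with 13 windows, and 4 of the 13 windows, from Hapln1, Runx2 and Sox6, hold TGTGGT. The Sox core AACAAT, searched the same way, was in 1 of the 13 windows, of Sox6, against 10.7% of all windows. A match says only that the letters are there.

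Sp7, the osteoblast factor downstream of Runx2, was well above background on heart 2 alone. It had -6.25, -3.25 and -6.18 on heart arrays 1, 2 and 3, against -5.65, -4.53 and -4.20 on tail arrays 1, 2 and 3, and it was not tested. Alpl, encoding tissue-nonspecific alkaline phosphatase, was well above background on every array, with 1.99, 0.06 and 2.28 on heart arrays 1, 2 and 3, against 2.22, 2.45 and 1.93 on tail arrays 1, 2 and 3. Apart from heart 2 the tissues overlapped. The Alpl difference was -0.05 on 4 arrays (95% confidence interval -0.70 to 0.59, limma adjusted p = 0.901) and -0.76 by label (SE 0.62, adjusted p = 0.726).

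Across the 7 tested genes the median difference was 0.19 by label and -0.54 on 4 arrays, against -0.35 and -0.06 over all tested features. On 4 arrays the groups did not overlap at 5 of the 7, where 62.3% of all features had this. By label there was no overlap at 0 of the 7, against 10.1% of all features, and without heart 2 at 2 of the 7, against 19.2%. An exact two-sided permutation test by label gave p between 0.2 and 0.9 for the 7 genes, and 3 arrays against 3 cannot give less than 0.1. With 2 against 2 the smallest is 0.333. The authors' deposited table of 433 probes lists 0 of the 10 genes. The sources used here do not say how its probes were chosen.

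**Figure D2:**
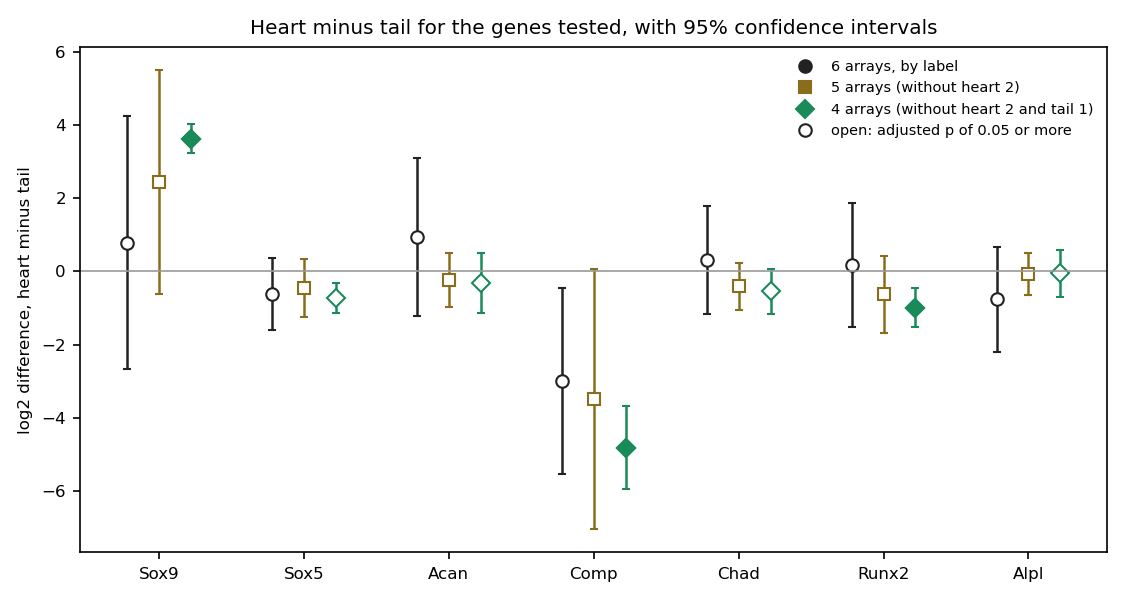
Log2 difference of heart minus tail with its 95% confidence interval for the 7 genes tested, in 3 comparisons: all 6 arrays by label (circles), 5 arrays without heart 2 (squares) and 4 arrays without heart 2 and tail 1 (diamonds). Filled symbols passed an adjusted p of 0.05, which only Sox9 (3.63), Comp (-4.83) and Runx2 (-0.99) did, on 4 arrays alone.

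Other genes of the cartilage matrix went both ways. By label 0 of 11 tested passed. On 4 arrays 12 of 19 were tested, 3 were higher in heart and 3 lower, and the median difference was 0.60. Over all features 7.74% were higher and 6.53% lower. Col10a1 could be tested through tail alone and Scrg1 and Cnmd through heart alone, in each case the group where the gene was brighter. With signal required on all 4 arrays, 8 were tested, 1 was higher and 2 lower (median 0.23). Of 18556 features, 1155 were then higher and 1000 lower. This list and those below were chosen with earlier results of these data known. Lower in heart were Col10a1, the collagen of hypertrophic cartilage (at least 50.9-fold), Prg4, the joint lubricant lubricin (25.5-fold), and Col2a1, the main cartilage collagen (8.74-fold; limma adjusted p = 0.00578, 0.00126 and 0.00251). Col2a1 had -1.56, 0.13 and -2.002 on heart arrays 1, 2 and 3, against -2.66, 1.46 and 1.24 on tail arrays 1, 2 and 3, so that tail 1 was the lowest of the 6 arrays. Its difference therefore ran opposite to that of Sox9, its known activator, and with that of Comp. Higher in heart were Scrg1 (at least 4.06-fold, adjusted p = 0.00225), Col11a1, a minor fibril collagen (3.999-fold, adjusted p = 0.00335), and Cnmd, encoding the cartilage protein chondromodulin (at least 3.05-fold, adjusted p = 0.00299). The authors' deposited table gives Scrg1 a log2 fold change of 4.48. That table belongs to this same series, so its values are no separate evidence for this gene or those below. The type IX collagen genes Col9a1 (0.59, adjusted p = 0.492) and Col9a2 (0.61, adjusted p = 0.214) did not pass. Under normexp, which adds an offset of 50 to each signal, the log2 difference was -3.57 for Col10a1, 1.35 for Scrg1 and 0.60 for Cnmd, all below the bounds given, which hold for the processed signals. Without a filter the median of this list turned to -0.30, and without tail 3 to -0.24.

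Among regulators of chondrocytes more were lower than higher in heart. By label 0 of 11 passed, and on 4 arrays 7 of 14 were lower and 1 higher (median -0.88). The shares over all features were 6.53% lower and 7.74% higher. Sox8, Pax9 and Bmpr1b could be tested through tail alone and Shox2 through heart alone, in each case the group where the gene was brighter. With signal required on all 4 arrays, 9 were tested, 4 were lower and 0 higher. Of 18556 features, 1000 were then lower and 1155 higher. Pax9 and Pax1, which pattern the sclerotome that forms the vertebrae, were at least 21.1-fold and 16.3-fold lower in heart (limma adjusted p = 0.000626 and 0.00151). Pax1 had -3.23, -1.85 and -3.53 on heart arrays 1, 2 and 3, against -2.83, 0.44 and 0.85 on tail arrays 1, 2 and 3, with tail 1 beside the heart arrays. The difference of Pax9 was -2.99 under normexp and -3.23 with its dimmest probe, both below its bound, and that of Pax1 was -2.91 under normexp. Sox8, a close relative of Sox9, went the other way from it and was at least 3.30-fold lower in heart (adjusted p = 0.008). The receptor Bmpr1b was at least 6.86-fold lower and the receptor Fgfr3, a brake on chondrocyte growth, 3.497-fold lower (adjusted p = 0.00471 and 0.00729). Normexp gave a log2 difference of -1.42 for Bmpr1b and of -1.32 for Sox8, both below their bounds. The homeobox gene Shox2 was at least 1.75-fold higher in heart (adjusted p = 0.0135). Shox2 lost its call under normexp (0.161), without a filter (0.112) and without tail 2 (0.089) or tail 3 (0.0816). Without tail 3 this list gave 4 lower and 0 higher, and Fgfr3 lost its call (0.0556), as it did without a filter (0.0773). The growth plate signals Ihh and Pthlh were not tested: Ihh was well above background on heart 3 alone and Pthlh on heart 2 alone.

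Other regulators of osteoblasts had calls in 1 direction only. By label 0 of 10 passed, and on 4 arrays 4 of 11 were lower in heart and 0 higher (median -0.42). The shares over all features were 6.53% lower and 7.74% higher. Dlx5 could be tested through tail alone, where it was brighter. With signal required on all 4 arrays, 10 were tested, 3 were lower and 0 higher. Of 18556 features, 1000 were then lower and 1155 higher. Dlx5, a homeobox activator of bone formation, was at least 15.2-fold lower in heart (limma adjusted p = 0.00142), and the authors' deposited table gives it a log2 fold change of -4.30. Under normexp the Dlx5 difference was -2.22, below its bound. Twist1, which holds back Runx2 protein, was 4.16-fold lower, Msx2 2.50-fold and Twist2 2.19-fold (adjusted p = 0.00964, 0.026 and 0.0129). Cbfb, the partner subunit of Runx proteins, differed by 0.02 (adjusted p = 0.957), and Runx1 and Runx3 by -0.69 (0.0981) and -0.07 (0.852). Without tail 2 the list gave 1 lower and without tail 3 it gave 2, as calls over all features also fell (1809 and 1483, against 2933). The differences changed little: without tail 2 that of Msx2 was -1.22 (adjusted p = 0.166), that of Twist2 -1.07 (0.153) and that of Twist1 -2.03 (0.054). Without tail 3, Msx2 had -1.41 (0.114) and Twist2 -1.20 (0.118).

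Genes of bone matrix and mineral divided between the tissues. By label 0 of 12 passed. On 4 arrays 13 of the 19 found on the array were tested, with 3 higher in heart and 4 lower (median -0.36). Over all features 7.74% were higher and 6.53% lower. Ibsp could be tested through tail alone, where it was brighter. With signal required on all 4 arrays, 11 were tested, 3 were higher and 3 lower. Of 18556 features, 1155 were then higher and 1000 lower. Lower in heart were Ibsp, encoding bone sialoprotein (at least 5.15-fold), the sphingomyelinase Smpd3 needed for mineralization (10.4-fold), Spp1, encoding osteopontin (5.21-fold), and Omd (2.21-fold; limma adjusted p = 0.00199, 0.00114, 0.0026 and 0.0129). Smpd3 had -2.26, -1.03 and -2.39 on heart arrays 1, 2 and 3, against -2.30, 1.101 and 1.004 on tail arrays 1, 2 and 3. Its heart values lay below tail 2 and tail 3 on all 3 arrays. Higher in heart were Tnfrsf11b, encoding the osteoclast decoy receptor osteoprotegerin (7.67-fold), Enpp1, which makes the mineral inhibitor pyrophosphate (7.05-fold), and Mgp, the matrix Gla protein (3.67-fold; adjusted p = 0.011, 0.00301 and 0.00367). The authors' deposited table gives log2 fold changes of 2.71 for Enpp1, 2.23 for Mgp and -2.11 for Spp1. Under normexp the log2 difference was -1.44 for Ibsp, below its bound, and 2.16 for Enpp1. Omd lost its call without tail 2 (0.141) or tail 3 (0.135). Of the late osteoblast and osteocyte genes, Dmp1, Phex, Sost and Panx3 were not well above background on any of the 5 arrays other than heart 2. Bglap2 and Mepe were well above background on every array. Neither passed on 4 arrays (log2 difference -1.41 and -0.36, limma adjusted p = 0.17 and 0.328). Without a filter, where more dim probes entered the adjustment, calls were also lost for Col10a1 (adjusted p = 0.0525), Col11a1 (0.0508), Sox8 (0.069), Twist1 (0.0858), Msx2 (0.169), Twist2 (0.129), Tnfrsf11b (0.0858), Mgp (0.0547) and Omd (0.128).

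**Figure D3:**
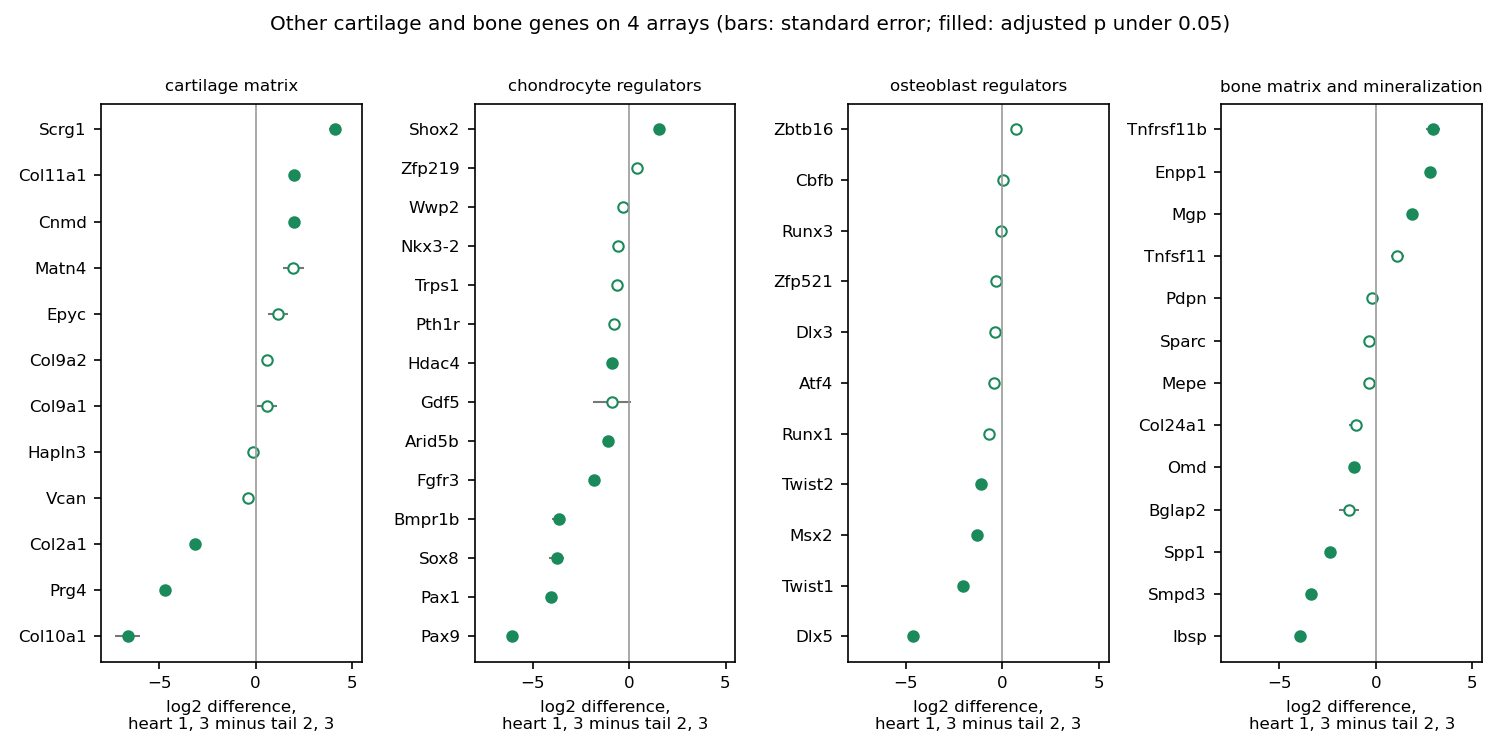
Log2 difference of heart 1 and 3 minus tail 2 and 3 for the tested genes of 4 lists, with the standard error as a bar and filled points for an adjusted p under 0.05. Cartilage matrix genes run from Col10a1 at the low end to Scrg1 at the high end, and among osteoblast regulators every filled point lies below 0.

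**Figure D4:**
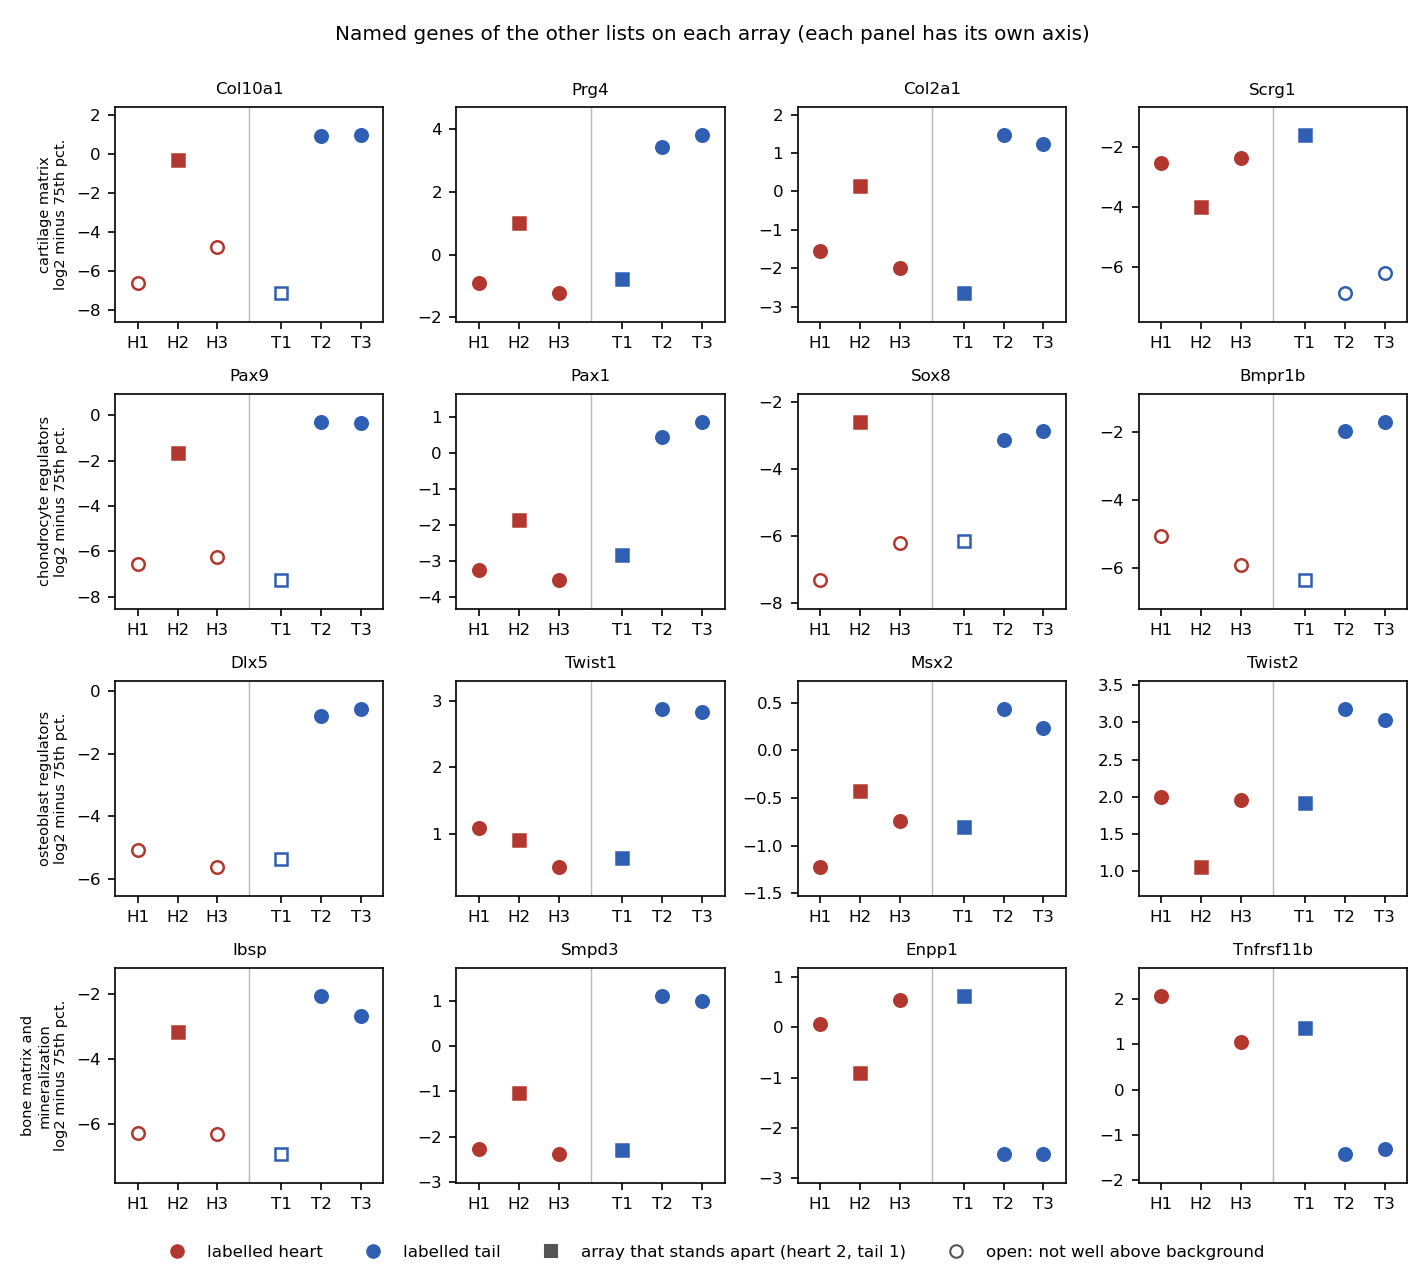
Level on each array (log2 signal minus the array's 75th percentile) of up to 4 genes per list with the largest called differences on 4 arrays, drawn as for the 10 genes; a missing symbol is an array whose spot was an outlier. T1 lies nearer to H1 and H3 than to T2 and T3 in each of the 16 panels.

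Markers of other cells differed between the same arrays. Notochord and nucleus pulposus markers were dim: T, Foxa2, Shh and Krt8 were not well above background on any array but heart 2, and Krt19 was lower in heart on 4 arrays (log2 difference -5.25, limma adjusted p = 0.00378, well above background on heart 1 and not on heart 3). By label 0 of 4 smooth muscle, 0 of 1 skeletal muscle, 0 of 3 mesothelium, 0 of 6 endothelial and 0 of 5 leukocyte markers passed. The same held for 0 of 1 notochord, 0 of 1 adipocyte and 0 of 8 general fibroblast markers. On 4 arrays 4 of 4 smooth muscle markers and 2 of 3 tested skeletal muscle markers were lower in heart. Higher there were 2 of 3 tested mesothelium, 4 of 6 endothelial and 3 of 5 leukocyte markers. Over all features 6.53% were lower and 7.74% higher. Some markers could be tested only through the group where they were brighter, among them Myog, Myh3 and Plin1 through tail and Cldn5 through heart. The endothelial junction gene Cldn5 was at least 9.98-fold higher (limma adjusted p = 0.000749) and the macrophage gene Aif1 23.8-fold (0.00835). Of 3 tested adipocyte markers Plin1 was at least 5.28-fold lower (0.0328). Of the 8 general fibroblast markers Pdgfra, Dcn and Col3a1 were higher and Thy1 lower. The summed mesothelium level was 0.749, 0.722 and 0.559 on heart arrays 1, 2 and 3, against 0.886, 0.11 and 0.0604 on tail arrays 1, 2 and 3, high on heart 1, heart 3 and tail 1 as for Sox9 and also on heart 2. The summed smooth muscle level was 249, 172 and 223 on the heart arrays, against 188, 795 and 655 on the tail arrays. Such sums follow the brightest probes of a list, and they were 6.08 to 18.1 on heart arrays and 14.9 to 21.8 on tail arrays for endothelial markers. For leukocyte markers they were 18.2 to 83.3 on heart arrays and 46.1 to 65.5 on tail arrays. The part of these cells in the differences of cartilage and bone genes was not tested.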

How the data were processed

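The authors deposited scanner files, whose intensities come, per the file headers, from Agilent Feature Extraction 11.0.1.1, which subtracted background and did not scale arrays to one another. Median spot and local background intensities and other columns, flags of 0 or 1 per spot, were also used as deposited. The authors' deposited table lists 433 probes with log2 fold changes and linear fold ratios of heart over tail, and the sources used here do not say how it was made.

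The value is log2 of the processed signal minus the array's 75th percentile over non-control spots, with outlier spots left out and spots of a probe averaged. RefSeq accessions named 27235 of 55681 probes, and symbols of the deposited list named 27 more. The array design uses mm9, so gene coordinates are not printed except for a GRCm38.p6 promoter window. Testing required a probe to be well above background throughout heart or throughout tail, and a gene was represented by its brightest such probe. No spot was saturated. The number of arrays limits the precision.

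Groups came from the sample titles and were compared with limma 3.58.1 in R 4.3.3 (lmFit and eBayes, two-sided). P-values were adjusted over all features by Benjamini-Hochberg, with a threshold of 0.05. The code was first tested on simulated data. With 4 simulated arrays it recovered 25% of features changed by 1.5 log2 and 94% of those changed by 3, at the spread set there. A gene that did not pass on 4 arrays may therefore still differ. Comparisons used 6 arrays by label, 5 without heart 2 and 4 without heart 2 and tail 1. For a probe not well above background in the dimmer group, the fold is "at least": the brighter mean against the higher of each dim array's own signal and its lowest signal well above background. A gene of the osteoblast regulator list is not reported here and was left out of its counts. The genes, the lists, the comparisons and the alternatives were chosen with earlier results of these data known. Named from each list were up to 4 called genes with the largest differences on 4 arrays; Col11a1, Cnmd, Fgfr3, Shox2, Spp1, Omd, Mgp, the marker genes of other cells and list genes that did not pass fall outside this rule and were picked with their values known. The alternatives were quantile, median and normexp (offset 50, on median spot signals) processing, other filters and probe rules, blocks, array weights and leaving out each array. Python 3.11.15 with pandas 2.3.3 and matplotlib 3.10.9 read and drew the data.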

Additional observations from a re-analysis of the deposited data

How the results depend on the processing

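By label, 0 features and 0 of the 10 genes passed under 9 of the alternatives and without heart 2, heart 3 or any tail array; the number tested changed with the filter (37066 features and 10 genes without one, 18122 and 6 with signal required on every array). The replicate block called 120 features and 1 of the 7 genes, Comp (adjusted p = 0.0158); deviations of same-numbered arrays correlated at 0.195, 0.259 and -0.33, so the numbers were not taken to pair the arrays. Array weights, whose estimate did not converge, called 5613 features and 4 of the genes, and 4 arrays called 2933 and 3. Leaving out 1 array gave 0 to 239 features (239 without heart 1, all higher in heart) and 0 of the genes. Median scaling gave a median over all features of -1.31 by label, against -0.35 at the 75th percentile, so signs of small differences there follow the scaling. The by-label signs turned for Sox9 (quantile -0.42, median -0.17), Sox5 (quantile 0.023), Acan (median scaling -0.018, array weights -0.019, 5 arrays -0.24, 4 arrays -0.31), Chad (quantile -0.74, median -0.65, weights -0.28, 5 arrays -0.41, 4 arrays -0.54), Runx2 (quantile -0.63, median -0.78, weights -1.13, 5 arrays -0.62, 4 arrays -0.99) and Alpl (weights 0.17). Leaving out 1 array gave ranges of -0.078 to 2.45 for Sox9, -0.24 to 1.74 for Acan, -0.41 to 0.76 for Chad and -0.62 to 0.70 for Runx2. On 4 arrays Sox9 (3.30 to 3.70) and Comp (-5.43 to -4.23) kept direction and call in all 13 alternatives. No filter, which let in more dim probes, called 692 features on 4 arrays and 2 of the genes. It left 1 to 4 calls in each list but tendon, which kept 5. Leaving out 1 of the 4 arrays, where the lone array is assumed to vary like the other group, gave 1483 to 4056 features and 2 to 4 of the genes, with 1809 without tail 2 and 1483 without tail 3; Acan ranged from -0.73 to 0.10 and Alpl from -0.31 to 0.21. Sox5 passed on 4 arrays under quantile normalization (adjusted p = 0.0454), normexp (0.04), signal required on every array (0.0486), an intensity trend (0.0184) and without heart 1 (0.0426). The causes of these changes were otherwise not tested. The deposited fold changes could not replace the fit, as the table lists none of the 10 genes. No replicate block could be fitted on 4 arrays, which share 1 number between the groups.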

Other observations

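Genes of osteoclasts, the bone-resorbing cells of the macrophage lineage, did not move as one. By label 0 of 8 passed. On 4 arrays 8 of 11 were tested, 3 were higher in heart and 1 was lower, and the median difference was 0.15. Over all features 7.74% were higher and 6.53% lower. Atp6v0d2 could be tested through heart alone, where it was brighter. With signal required on all 4 arrays, 7 were tested, 2 were higher and 1 lower. Of 18556 features, 1155 were then higher and 1000 lower. Higher in heart were Atp6v0d2, a proton pump subunit (at least 3.96-fold), Itgb3 (4.33-fold) and Acp5, encoding tartrate-resistant acid phosphatase (4.03-fold; limma adjusted p = 0.0027, 0.00471 and 0.0108). Ctsk, the collagen-degrading protease cathepsin K, was 2.22-fold lower in heart (adjusted p = 0.0163). Tnfrsf11a, the receptor for the osteoclast differentiation signal, differed by 0.11 (adjusted p = 0.767). Calcr and Mmp9 were not well above background on any array but heart 2. Without tail 2 the list gave 3 higher and 0 lower, and without tail 3 it gave 2 and 0.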
